A study of Mus musculus with 6 samples.

Results

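The genes described here are 38 mouse genes of the mitotic cell cycle, from DNA replication to the separation of daughter cells, read in RNA of the cervical spinal cord. They were chosen by symbol, and all 38 were found among the 54532 gene identifiers measured. The RNA came from 6 C57BL/6 mice, each taken as 1 library, 3 controls and 3 with allergic contact dermatitis (ACD), an itching inflammation of the skin. ACD mice were painted with the contact allergen squaric acid dibutylester (SADBE), 20 µl at 1% in acetone, over 3 days on shaved belly skin and, after 5 days without, over another 3 days on the nape. Controls received acetone on the nape, and the labels do not make clear whether their abdomen was treated with SADBE. The sources used here state no age, sex or day of dissection, so handling that differed between the groups cannot be told apart from the treatment.

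Cells that divide copy their DNA in S phase, after E2F factors switch on cyclin E, nucleotide enzymes and the MCM helicase that opens the replication origins. Mitosis then follows from cyclin A and cyclin B bound to the kinase Cdk1, and genes for it are transcribed late in the cycle under the control of MuvB complexes, B-Myb, FoxM1 and the CCAAT-binding factor NF-Y. Neurons of the adult cord do not divide, and the dividing cells known there are mostly oligodendrocyte precursors, with some glia, vessel cells and blood-derived cells. In whole cord, a change in the number of dividing cells, more or fewer, and a change in these RNAs per cell cannot be told apart.

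In the ACD cords the mitotic cyclin Ccnb2 rose, from 0.224 ± 0.0445 to 0.765 ± 0.104 FPKM (a fragment count divided by exon length and library size; mean ± SD, n = 3 here and below). It was the only one of 35 members tested that passed an adjusted p of 0.05 by limma, and none was called lower. Of all genes tested, 1.81% were called higher and 2.53% lower. The Ccnb2 call rested on 5 to 7 reads in each control and held in only 2 of the fits with 1 library left out. The proliferation marker Mki67, the topoisomerase Top2a and the kinases Pbk and Aurkb had ACD means 2.64, 3.53, 3.72 and 4.53 times the control means and did not pass by limma. These are among the largest ratios: over the tested members outside S phase they ran from 0.691 (Bub1b) to 4.53, with Cenpe at 1.05. None of the 9 S phase genes passed by limma, and their ACD means ran from 0.913 (Tyms) to 1.59 (Rrm2) times the control means. These RNAs are rare in the cord: 31 of the 38 had a mean under 1 FPKM, and 14 rested on a mean of under 20 reads per library.

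Promoters of the late genes show the elements by which they are known to be grouped, and 4 stretches are given here for a cyclin, its kinase and a pair of replication genes. Each holds the 160 bases before the RefSeq transcription start (GRCm38.p6), 5′ to 3′ on the gene's strand. Capitals mark the CCAAT box (CCAAT or ATTGG), the cell cycle homology region or CHR (TTTGAA or its reverse complement) and the E2F site (TTTCCCGC, TTTGGCGC, TTTCGCGC, TTTGCCGC or a reverse complement).
Ccnb2, chr9:70421555-70421714, minus strand: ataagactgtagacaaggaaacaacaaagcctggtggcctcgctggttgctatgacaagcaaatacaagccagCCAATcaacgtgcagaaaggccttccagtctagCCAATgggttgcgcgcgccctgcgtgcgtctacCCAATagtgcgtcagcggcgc
Cdk1, chr10:69352913-69353072, minus strand: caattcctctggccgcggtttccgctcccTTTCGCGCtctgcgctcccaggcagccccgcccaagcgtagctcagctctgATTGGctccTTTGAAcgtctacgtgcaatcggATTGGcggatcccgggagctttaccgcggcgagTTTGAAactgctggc
Mcm2, chr6:88898781-88898940, minus strand: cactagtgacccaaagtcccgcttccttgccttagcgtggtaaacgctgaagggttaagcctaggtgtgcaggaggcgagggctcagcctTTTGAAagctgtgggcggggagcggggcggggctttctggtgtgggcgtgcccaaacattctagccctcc
Mcm6, chr1:128359706-128359865, minus strand: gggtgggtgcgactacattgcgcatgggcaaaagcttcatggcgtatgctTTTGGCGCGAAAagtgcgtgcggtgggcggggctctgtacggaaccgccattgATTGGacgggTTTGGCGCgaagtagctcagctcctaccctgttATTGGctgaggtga

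The Ccnb2 stretch holds CCAAT boxes that begin 87, 54 and 21 bases before the start, and its CHR elements begin 167 bases before and 4 bases after it, outside the printed stretch. In Cdk1 a CHR element begins 15 bases before the start and another 71 before it, with an E2F site at 131. Mcm6 carries E2F sites at 47, 106 and 110 bases, of which the last 2 overlap on opposite strands. The stretches of Ccnb1 and Pcna lie partly in the first exon of the GENCODE annotation and are not printed. The printed Cdk1 stretch also reaches into the annotated gene, which extends to 69352938. Its CHR element at 15 bases before the RefSeq start lies within that gene.

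RefSeq windows of 300 bases, 250 before and 50 after the start, were matched for 32 of the 38 members (33 windows, 2 of them for Prc1). Among the 25 windows of members outside S phase, 20 hold a CHR element and 15 hold at least 2 CCAAT boxes. Among the 8 windows of S phase members 1 holds a CHR element, 3 hold at least 2 CCAAT boxes and 3 hold an E2F site. Of all 32851 windows in the table, 17.9% hold a CHR element, 11.7% at least 2 CCAAT boxes and 2.27% an E2F site. Among the windows of genes tested, the shares were 12.4%, 12.9% and 3.49%. The 20 members with a CHR element had log2 fold changes of -0.46 to 1.42 with a median of 0.47, and the 12 without had -0.11 to 0.89 with a median of 0.25. These fold changes are from the fit without a filter, so Bub1 (0.89), Ttk and Kif2c, which were not tested, are included. Kif20a, Pbk, Ccne2, Tpx2, Ccna2 and Aurkb had no window and are in neither set. Every S phase member with a window except Mcm2 is in the set without a CHR element, so this split largely repeats that of S phase against the rest. A match of letters is a description, and the ranges of the sets overlap.

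Each fold change below is a difference of mean log2(FPKM + 0.1), ACD less control, a scale that makes changes of low genes look smaller, and adjusted p-values are from limma over 21369 genes. Of these genes 4.34% were called, 1.81% higher and 2.53% lower (386 and 541 genes). That split was 208 and 704 with TPM scaling and 908 and 485 once a dependence of the fold change on exon length and base composition was taken out. Among the 35 members tested 1 was called higher and none lower. By an unadjusted p of 0.05, 9 members were higher and none lower, beside 10.5% and 11.8% of all genes tested. With voom on reads recovered from the FPKM, 4 of 33 members were higher and none lower, beside 3.36% and 4.63% of all genes (7.99% in all). These 4 were Ccnb2, Pcna, Pbk and Aurkb. Aurkb, with a control mean under the filter (0.0655 FPKM), entered the test through its ACD values, and it is among the 31 and the 14 below. Cenpf (0.0717) entered likewise and is among the 31. Of the 35 tested, 31 had a fold change above 0, beside 48.6% of all genes tested. Without any filter on low values, 34 of the 38 members had a fold change above 0, with a median of 0.46. Of the 31204 genes in that fit 43.3% did, with a median of -0.05. With the filter, the median was -0.01 over all genes tested. It was -0.04 over those in the members' range of mean FPKM, of which 44.2% were above 0. The ACD and control values did not overlap for 14 of the 35, each higher in ACD, beside 13.1% of all genes tested. Bub1, which was not tested, also did not overlap. The 38 were chosen as one pathway with earlier results of these data known, so their shared direction is a description.

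**Figure D1:**
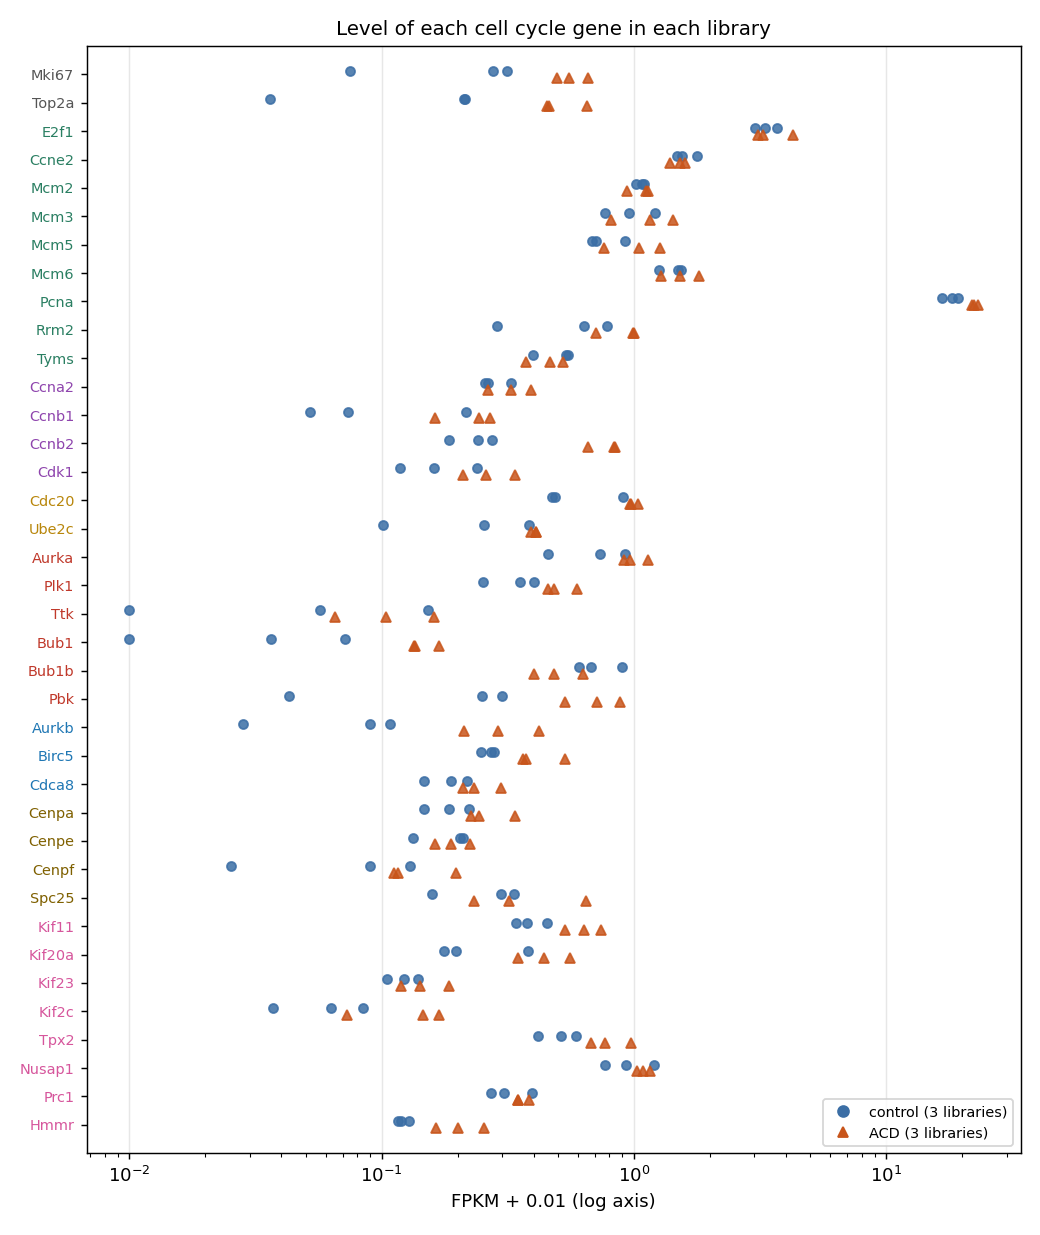
FPKM + 0.01 of each of the 38 genes on a log axis, with controls as circles and ACD as triangles, 3 libraries each. Gene names are coloured by role as in the plot of fold changes. Ccnb2 lies at 0.176 to 0.264 FPKM in the controls and 0.645 to 0.828 in ACD, and Pcna is the most abundant gene.

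Mki67 marks cycling nuclei and Top2a untangles the copied chromosomes. Mki67 was at 0.0646, 0.267 and 0.304 FPKM in controls 1 to 3 and at 0.647, 0.486 and 0.543 in ACD 1 to 3. It rested on 11, 50 and 53 reads against 113, 99 and 100. Control 1 was far below the other controls, and each ACD value lay above each control. The log2 fold change was 1.18 (SE 0.38, adjusted p = 0.132). Top2a was at 0.0262, 0.203 and 0.205 FPKM in controls and 0.640, 0.449 and 0.443 in ACD, from 4, 34 and 32 reads against 100, 82 and 73. The groups again did not overlap, and control 1 was again the lowest. The log2 fold change was 1.41 (SE 0.41, adjusted p = 0.102).

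Among the cyclins, Ccnb2 and Ccnb1 are the B cyclins that drive entry into mitosis, and Ccna2 acts in S phase and before mitosis. Ccnb2, on chromosome 9 at 70407692 to 70421547, was at 0.232, 0.176 and 0.264 FPKM in controls and 0.828, 0.645 and 0.821 in ACD. These values stand for 6, 5 and 7 reads against 22, 20 and 23. The groups did not overlap, with a log2 fold change of 1.42 (SE 0.23, adjusted p = 0.0235). The reads within each group varied less than counting error alone would give, so their spread understates the uncertainty. No word of 50 bases in its transcripts is shared with another gene, and no annotated gene overlaps it. At a mean of at least 0.5 FPKM Ccnb2 itself, with a mean of 0.494, was not tested. The call did not hold without control 1 (adjusted p = 0.0595), ACD 1 (0.0950), ACD 2 (0.0634) or ACD 3 (0.1001), while the log2 fold change stayed between 1.31 and 1.52 with any 1 library left out.

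Ccnb1 was at 0.0421, 0.0638 and 0.205 FPKM in controls and 0.260, 0.152 and 0.233 in ACD, from 3, 5 and 15 reads against 19, 13 and 18. Control 3 lay within the ACD range, and the log2 fold change was 0.70 (SE 0.42, adjusted p = 0.378). Of the words in its transcripts 23.4% are shared, mostly with pseudogenes such as Ccnb1-ps, so its values are uncertain. Cdk1, the kinase partner of the B cyclins, was at 0.108, 0.229 and 0.152 FPKM and at 0.327, 0.250 and 0.199, and the groups overlapped. Its log2 fold change was 0.46 (SE 0.33, adjusted p = 0.459). Ccna2 was at 0.272 ± 0.0384 and 0.317 ± 0.0634 FPKM (0.16, SE 0.25, adjusted p = 0.757). It shares 11.4% of its words with Exosc9, which overlaps it on the opposite strand.

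The S phase group held 9 members, all tested, and none was called by limma. At an unadjusted p of 0.05 the sliding clamp Pcna was higher and none was lower, and with voom Pcna alone was higher. Pcna, which holds the polymerase on DNA and also serves repair, was at 18.2, 19.2 and 16.6 FPKM in controls and 23.1, 22.2 and 21.9 in ACD. It rested on 740, 857 and 690 reads against 962, 1081 and 961, and every ACD value lay above every control value. The log2 fold change was 0.32 (SE 0.07, adjusted p = 0.0580 by limma and 0.0371 by voom). It also passed with the dependence on length and base composition taken out (adjusted p = 0.0156) and with a mean of at least 0.5 FPKM (0.0484). It did not pass with TPM scaling (log2 fold change 0.22, adjusted p = 0.119), with no filter (0.0893) or with any 1 library left out (0.0567 to 0.178). In its transcripts 19.1% of words are shared with the pseudogene Pcna-ps2.

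The MCM subunits of the replicative helicase did not pass. Mcm2 was at 1.07, 1.01 and 1.09 FPKM in controls and 0.928, 1.13 and 1.11 in ACD. Its groups overlapped, and the log2 fold change of -0.01 had a 95% interval of -0.35 to 0.34. Mcm6 was at 1.48, 1.52 and 1.25 FPKM and at 1.27, 1.80 and 1.51, with a log2 fold change of 0.09 and an interval of -0.29 to 0.48. Mcm3 and Mcm5 had log2 fold changes of 0.19 and 0.36 (adjusted p = 0.699 and 0.389). These intervals leave room for moderate changes of either sign in Mcm2 and Mcm6.

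Rrm2, the small subunit of ribonucleotide reductase, was at 0.277, 0.621 and 0.770 FPKM in controls and 0.978, 0.695 and 0.986 in ACD. ACD 2 lay within the control range, and the log2 fold change was 0.66 (SE 0.34, adjusted p = 0.299). Tyms, which makes thymidylate, was at 0.486 ± 0.0846 and 0.444 ± 0.0739 FPKM (-0.11). Cyclin E2 (Ccne2), which starts S phase with Cdk2, was at 1.59 ± 0.158 and 1.49 ± 0.105 (-0.09). The transcription factor E2f1 was at 3.33 ± 0.346 and 3.54 ± 0.642 (0.08). The adjusted p-values of these 3 were 0.821, 0.731 and 0.794. Ccne2 shares 14.4% of its words with Ints8, which overlaps it on the opposite strand.

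**Figure D2:**
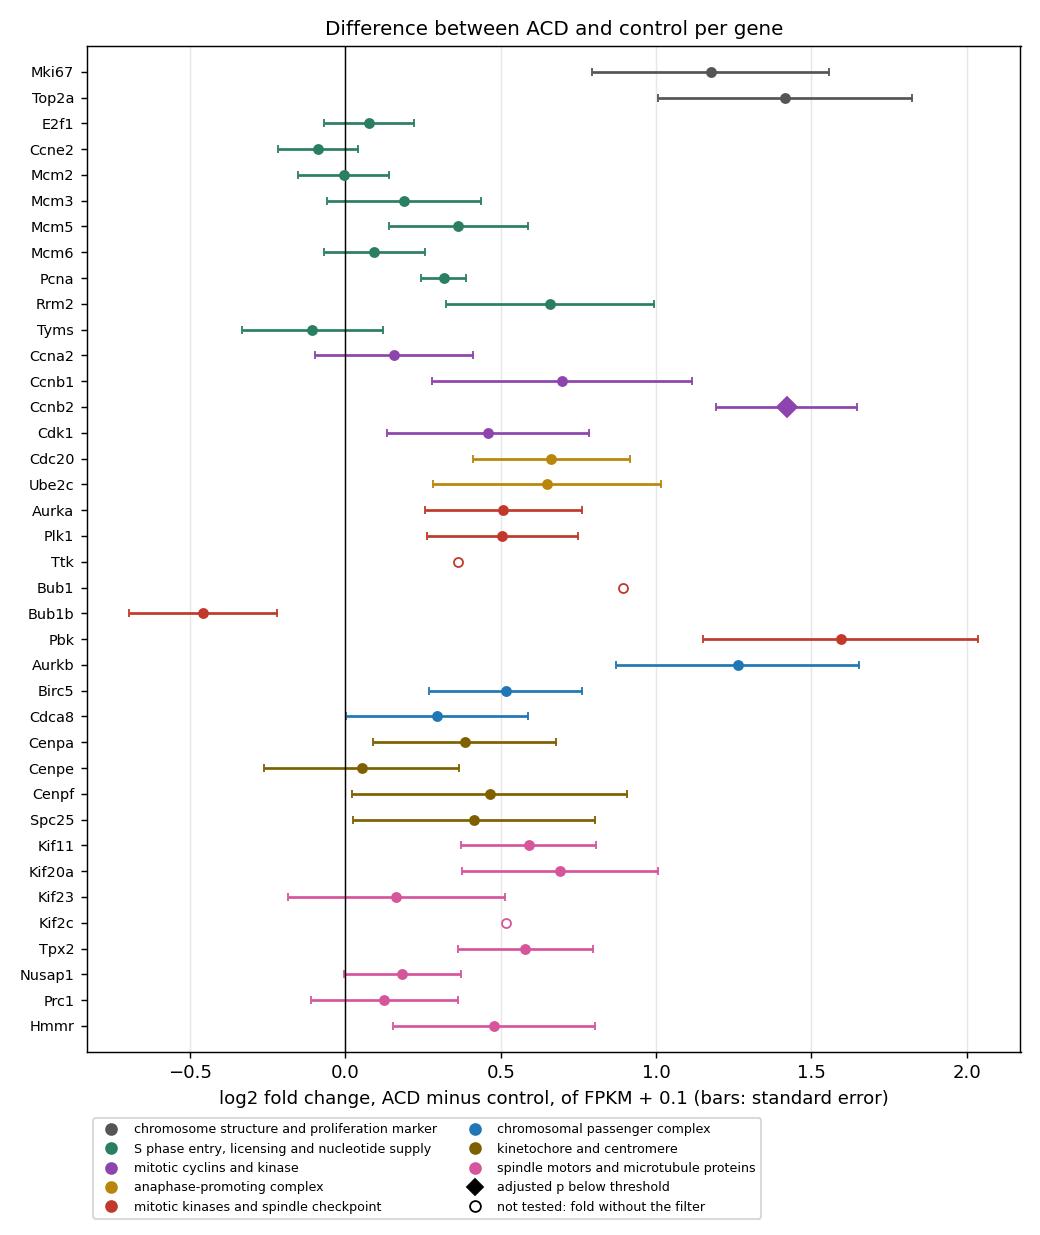
Log2 fold change of each gene, ACD minus control, of FPKM + 0.1, with its standard error, coloured by role. The diamond marks Ccnb2, the gene with an adjusted p below 0.05. Open circles are the 3 genes below the filter, with their fold change from the fit without it.

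Cdc20 activates the anaphase-promoting complex and Ube2c supplies it with ubiquitin. Cdc20 was at 0.475, 0.893 and 0.463 FPKM in controls and 0.957, 1.03 and 0.966 in ACD, from 15, 31 and 15 reads against 31, 39 and 33. The ACD values were close together and above each control, with a log2 fold change of 0.66 (SE 0.25, adjusted p = 0.184). Ube2c was at 0.236 ± 0.141 and 0.393 ± 0.0112 FPKM (0.65, SE 0.37, adjusted p = 0.344). Both overlap another gene on the opposite strand, and 10.6% and 16.0% of their words are shared.

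Of the 6 mitotic kinases and checkpoint genes 4 were tested, and none was called by limma or voom except Pbk with voom. Pbk, a kinase active in dividing cells, was at 0.0330, 0.240 and 0.290 FPKM in controls and 0.869, 0.524 and 0.702 in ACD. The reads were 1, 8 and 9 against 27, 19 and 23. The groups did not overlap, with a log2 fold change of 1.59 (SE 0.44, adjusted p = 0.0932 by limma and 0.0370 by voom). Aurka, which matures the spindle poles, was at 0.694 ± 0.234 and 0.999 ± 0.118 FPKM (0.51, adjusted p = 0.288). Plk1, which acts at many steps of mitosis, was at 0.326 ± 0.0771 and 0.501 ± 0.0734 (0.51, adjusted p = 0.273). Of the words of Plk1 10.4% are shared, with Plk-ps1 and with Gm44985, which overlaps it on the opposite strand.

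The checkpoint kinase Bub1b was the one of the 29 members outside S phase with a lower mean in ACD. It was at 0.595, 0.667 and 0.890 FPKM in controls and 0.620, 0.393 and 0.473 in ACD. ACD 1 lay within the control range, and the log2 fold change was -0.46 (SE 0.24, adjusted p = 0.306). Bub1 and Ttk, which sense unattached chromosomes, stayed below the mean of 0.1 FPKM needed for the test. Bub1 had 0, 5 and 2 reads in controls and 12, 11 and 10 in ACD. Ttk had 0, 13 and 4 reads against 8, 15 and 5. Taking 3 reads as the limit that 0 reads allow, control 1 could hold up to 0.0407 FPKM of Bub1 and 0.0361 of Ttk, for counting error only.

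Aurkb, Birc5 and Cdca8 belong to the chromosomal passenger complex, which corrects attachments to the spindle. Aurkb was at 0.0803, 0.0183 and 0.0979 FPKM in controls and 0.411, 0.201 and 0.278 in ACD. The reads were 4, 1 and 5 against 21, 12 and 15, and the groups did not overlap. Its log2 fold change was 1.26 (SE 0.39, adjusted p = 0.119 by limma and 0.0346 by voom). Aurkb and Cenpf were the 2 tested members whose control mean was under 0.1 FPKM, so they entered the test through their ACD values.

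Birc5, the complex's survivin subunit, was at 0.261, 0.269 and 0.237 FPKM in controls and 0.525, 0.363 and 0.354 in ACD. The controls were close together and below each ACD value, and the log2 fold change was 0.52 (SE 0.25, adjusted p = 0.270). Cdca8 (borealin) was at 0.174 ± 0.0356 and 0.237 ± 0.0444 FPKM (0.29, adjusted p = 0.596). Among genes of the centromere and kinetochore, the log2 fold changes were 0.38 for the centromeric histone Cenpa, 0.05 for the motor Cenpe, 0.46 for Cenpf and 0.42 for Spc25. None of these 4 passed, with adjusted p of 0.499 to 0.941 by limma, none had an unadjusted p under 0.05 and none passed with voom.

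The 8 spindle genes had fold changes above 0, and none of the 7 tested was called. At an unadjusted p of 0.05 Kif11 and Tpx2 were higher and none was lower. No gene passed with voom, which could be run for 5 of them. Kif11, the motor that pushes the spindle poles apart, was at 0.331, 0.368 and 0.443 FPKM in controls and 0.730, 0.625 and 0.522 in ACD. The groups did not overlap, with a log2 fold change of 0.59 (SE 0.22, adjusted p = 0.172). Tpx2, which binds Aurka on the spindle, was at 0.581, 0.506 and 0.407 FPKM and at 0.961, 0.665 and 0.760. The groups did not overlap, with a log2 fold change of 0.58 (SE 0.22, adjusted p = 0.177).

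Kif20a and Kif23, motors of cell division's last step, had log2 fold changes of 0.69 and 0.16 (adjusted p = 0.249 and 0.820). Kif20a shares 25.2% of its words, mostly with Cdc23, which overlaps it on the opposite strand. The microtubule proteins Nusap1, Prc1 and Hmmr had 0.18, 0.13 and 0.48 (adjusted p = 0.608, 0.795 and 0.436). Kif2c, which takes microtubules apart, had 2, 6 and 4 reads in controls and 12, 12 and 5 in ACD and was not tested.

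Summed over the 29 members outside S phase, the level was 6.41, 8.24 and 8.79 FPKM in controls and 14.2, 11.8 and 11.8 in ACD, a ratio of means of 1.61. Over the 9 S phase members the sums were 27.7, 29.3 and 27.5 FPKM in controls and 34.8, 33.7 and 32.0 in ACD, which did not overlap, a ratio of 1.19. Pcna makes up most of that level, and without it the sums were 10.2 ± 0.701 and 11.1 ± 0.822 FPKM, a ratio of 1.09, with overlapping groups. The difference between these ratios was not tested. Control 1 was the lowest library for 18 of the 38 members and ACD 1 the highest for 20. Without control 1 no member was called, and the median log2 fold change of the tested members went from 0.46 to 0.30.

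**Figure D3:**
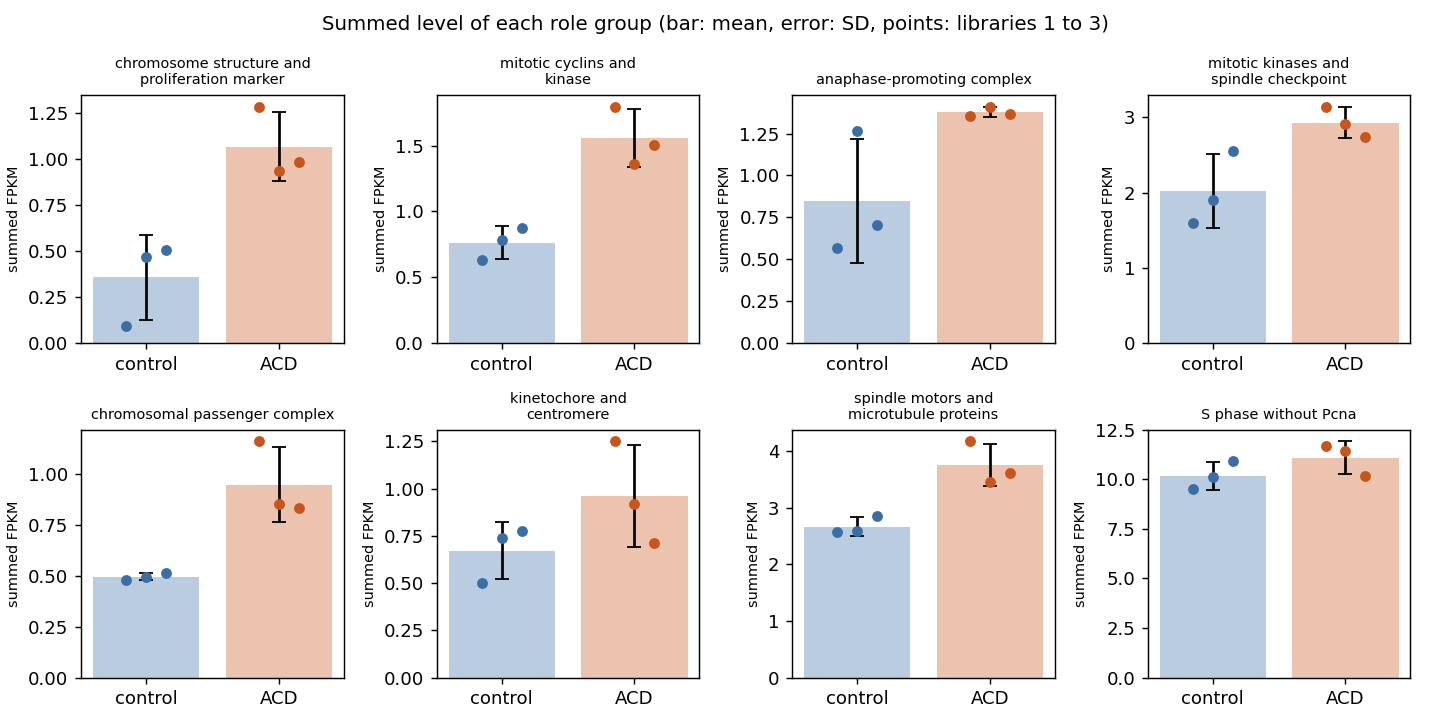
Summed FPKM of each role group, with bars for the mean, error bars for the SD and points for libraries 1 to 3 of each group. The pair Mki67 and Top2a lies at 0.357 in controls and 1.07 in ACD on average, and the S phase genes without Pcna at 10.2 and 11.1.

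Of the other genes of the pathway, 127 were listed and 113 tested. At an unadjusted p of 0.05, 11 of these were higher and 4 lower, beside 10.5% and 11.8% of all genes tested. By adjusted p from limma 1 of the 113 was called, beside 4.34% of all genes tested. This was Cdkn1a (p21), the inhibitor of cyclin-dependent kinases, at 11.6, 10.1 and 11.8 FPKM in controls and 30.4, 27.3 and 22.6 in ACD. Each ACD value was far above each control, with a log2 fold change of 1.25 (SE 0.12, adjusted p = 0.00713), and it passed with any 1 library left out. Of the 6 inhibitors tested the other 5 did not pass, among them Cdkn1c with 8.56 ± 1.49 and 11.7 ± 1.49 FPKM (0.46, adjusted p = 0.120).

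None of the 30 replication genes tested was called by limma, with 4 higher and 2 lower at an unadjusted p of 0.05 and none with voom (median log2 fold change 0.13). The flap endonuclease Fen1 had 0.76 (adjusted p = 0.0713) and the origin subunit Orc1 -0.92 (adjusted p = 0.129). None of the 47 other mitotic genes tested was called by limma, with 3 higher and 2 lower at an unadjusted p of 0.05 and 1 lower with voom (median 0.10). The phosphatase Cdc25b, which activates Cdk1, was at 2.004 ± 0.133 and 1.20 ± 0.203 FPKM (-0.70, adjusted p = 0.0517). Fen1, Orc1, Cdc25b and Cdkn1c were picked after their values were seen.

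None of 12 G1 cyclins and kinases passed by limma or voom, with 1 higher and none lower at an unadjusted p of 0.05, and Ccnd1 (cyclin D1) was at 6.47 ± 1.29 and 6.58 ± 0.990 FPKM (0.03). None of 18 regulators of the retinoblastoma, E2F and MuvB group passed by limma or voom, with 1 higher and none lower at an unadjusted p of 0.05. The late-gene activators Foxm1 and Mybl2 had 0.26 and -0.32 (adjusted p = 0.616 and 0.644), and the repressor E2f4 had 0.30 (adjusted p = 0.0811).

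The denominator that scales FPKM for library size, fitted from the FPKM values themselves, was 16916602, 18583990 and 17342466 for controls 1 to 3. For ACD 1 to 3 it was 17346315, 20245576 and 18293035. Reads recovered from the FPKM summed to 16517302, 18915346 and 17807137 for the controls, in the same order. The ACD sums were 18525474, 21487894 and 19029723. Every ACD sum lay above its denominator, as did those of controls 2 and 3, while that of control 1 lay below, so the denominator is not the number of reads in genes. Markers of neurons and oligodendrocytes were present in each library, as a cord should have. Neuron genes summed to 468 to 536 FPKM in controls and 546 to 557 in ACD, without overlap, and oligodendrocyte genes to 4567 to 6947 and 6893 to 8166, with overlap. Snap25 made up 352 and 380 of the neuron sum on average, and 2 of the 6 neuron genes, Chat and Slc5a7, had a fold change below 0. Of the neuron, oligodendrocyte, Schwann cell, meningeal fibroblast, erythroid and neutrophil genes none was called by limma, with 1, 2, 3, 3, 3 and 5 higher and none lower at an unadjusted p of 0.05, and with voom 1 neuron, 1 Schwann cell and 1 neutrophil gene were higher. Of 8 oligodendrocyte precursor genes none was called by limma (3 higher and 1 lower at an unadjusted p of 0.05, and 3 higher with voom). Their summed level was 191 to 225 FPKM in controls and 246 to 280 in ACD, of which Olig1 made up 131 and 170 on average. Of 8 microglia genes Tmem119 was called higher, and the sum was 74.8 to 92.6 and 94.3 to 104. Schwann cell markers summed to 66.6 to 125 and 196 to 292 FPKM, and erythroid genes to 100.3 to 390 and 482 to 774. Most of the erythroid sum was Hba-a1 (133 and 336 on average) and Hbb-bs (72.1 and 208). Of the 8 erythroid genes 2, Hba-a2 and Klf1, had a fold change below 0. Meningeal fibroblast genes summed to 16.8 to 35.6 and 29.2 to 39.8, with all 5 fold changes above 0 and a ratio of means of 1.45. Neutrophil genes summed to 26.1, 108 and 25.3 FPKM in controls 1 to 3 and 105, 95.4 and 125 in ACD 1 to 3, so that only control 2 overlapped, with all 10 fold changes above 0 and a ratio of means of 2.04. Lymphocyte genes, at 1.95 to 3.43 and 2.06 to 3.27, overlapped. So did the astrocyte, endothelium, pericyte and ependyma sums, with ratios of means of 1.08, 1.12, 0.929 and 0.989. No gene of these lists was called by limma or, where run, by voom. Fold changes were below 0 for 2 of 6 astrocyte, 6 of 8 endothelium, 4 of 5 pericyte and 3 of 5 ependyma genes tested. Of the 8 lymphocyte genes only 2 were tested, and 1 of these, Cd79a, had a fold change below 0 (0.476 ± 0.131 and 0.237 ± 0.101 FPKM). At an unadjusted p of 0.05, 1 astrocyte gene was higher, and 1 endothelium and 1 lymphocyte gene were lower, beside 10.5% and 11.8% of all genes tested. The nuclear long RNAs such as Malat1 were lower in ACD, with 6 of 7 called lower and sums of 365 to 413 and 115 to 157 FPKM. No marker was at 0 in every library. The part of these shifts in the cell cycle values was not tested.

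**Figure D4:**
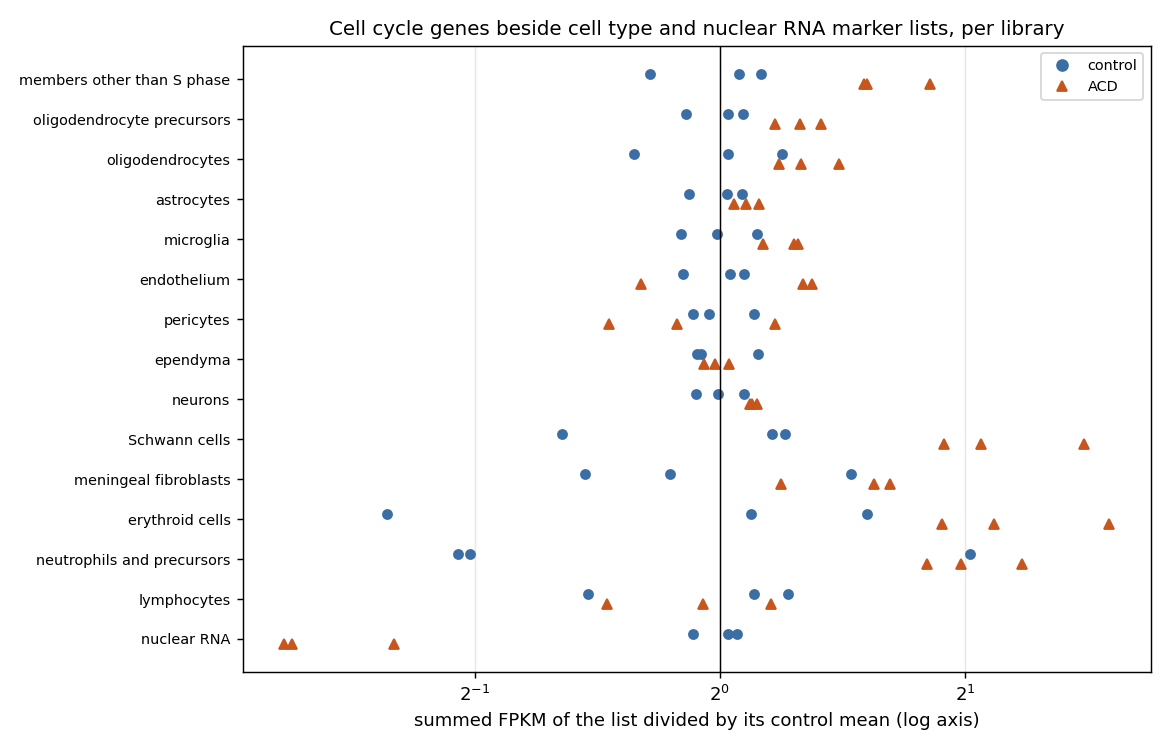
Summed FPKM of the members outside S phase and of each marker list, divided by the list's control mean, per library on a log axis. In ACD the sums of the members and of the oligodendrocyte precursor, microglia, neuron, Schwann cell and erythroid lists lie above those of all controls, and the nuclear RNA sums lie below them.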

How the data were processed

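RNA of 6 cervical cords was measured in 1 table per library. The values deposited by the authors are FPKM, and mm10, DESeq2 1.16.1, featureCounts 1.5.0-p3 and HISAT2 2.0.5 are listed in the submitters' processing notes with no roles. For the kit, the strand setting and the annotation release the entry is: not given in the sources used here. Sample descriptions gave the groups and replicate numbers.

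Reads were recovered as FPKM times exon length (GENCODE M21, GRCm38) times each library's denominator. They were whole, to 0.05, for 96.9% of values and for 36 of the 38 members in all libraries (not Kif11 and Kif20a, whose reads were rounded). limma 3.58.1 in R 4.3.3 (eBayes with trend and robust) was run on log2(FPKM + 0.1) of 21369 genes, those averaging 0.1 FPKM or more, with Benjamini-Hochberg adjustment over all of them and a threshold of 0.05. Tested on simulated data with several seeds, this fit gave more false calls than its nominal rate, mostly at genes of few reads, and came closer to it with at least 10 mean reads. That filter was therefore added as an alternative after the data were seen. The lowest mean of a tested member was 9.67 reads.

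The members and lists were chosen with earlier results of these data known. Named were the called members, those with an unadjusted p under 0.05, and Mki67, Top2a, Ccnb1, Ccnb2, Cdk1, Mcm2, Mcm6, Pcna, Rrm2 and Birc5. Other members are given by role, and of the other genes Cdkn1a, Ccnd1, Foxm1, Mybl2 and E2f4. The marker Ahsp was not matched. The labels call the replicates biological, and p-values measure the spread between these libraries. Alternatives were the pseudocount, the filter, TPM scaling, voom, removal of a length and GC trend, the replicate block and leaving out each library.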

Additional observations from a re-analysis of the deposited data

How the results depend on the processing

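The 927 genes called of all tested became 1393 with the dependence on length and GC taken out (the trend below), 556 without a filter, 1642 with voom, 181 with the replicate block, 215 with the block and the trend removed, and 192 to 736 with 1 library left out. The 1 member called higher became 2 after removal of the trend, 2 with at least 10 mean reads (added after the data were seen, adding Pcna with adjusted p = 0.0445), 4 with voom, 0 with the replicate block, 0 with the block and the trend removed, and 0 to 1 with 1 library left out. With a mean of at least 0.5 FPKM the 1 call was Pcna, since Ccnb2 was not tested there. No member was called lower under any of these settings. The median log2 fold change of tested members, 0.46, was 0.14 with a pseudocount of 1, which shrinks low genes, and 0.30 to 0.54 with 1 library left out. The 1 call in the pathway lists became 6 after removal of the trend, 2 with a mean of at least 0.5 FPKM, 3 with at least 10 mean reads and 2 with voom. Signs near 0 turned for E2f1 (-0.0187), Cenpe (-0.00815) and Ccnd1 (-0.0615) after TPM scaling, for Ccne2 after removal of the trend (0.131) with or without the replicate block, and for Mcm2 (0.0018) with voom. With 1 library left out the ranges were -0.0641 to 0.161 for E2f1, -0.0530 to 0.0756 for Mcm2, -0.0244 to 0.21 for Mcm6, -0.232 to 0.00202 for Tyms, -0.0836 to 0.129 for Cenpe and -0.137 to 0.144 for Ccnd1. Ccnb2 had an adjusted p of 0.0707 with the replicate block. The labels do not say whether the replicate numbers pair the libraries. Deviations of same-numbered libraries from their group means correlated at -0.03, 0.01 and 0.0034 across genes, which cannot show whether they were prepared in pairs. None of these sign changes passed the threshold. The cause of these shifts was not tested.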
